A study of Homo sapiens with 4 samples.

Results

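MKNK1 and MKNK2 encode the MAP kinase-interacting kinases MNK1 and MNK2. Skipped exon events of both genes were taken from a table that compares HEK293T cells, a human embryonic kidney line, treated with an antisense oligonucleotide (ASO) against the small nucleolar RNA SNORD89 with cells given no ASO. All rows of the table whose gene symbol is MKNK1 or MKNK2 were used. These were 21 of 65601 events: 15 of MKNK1 (ENSG00000079277.15) and 6 of MKNK2 (ENSG00000099875.10), on 17 distinct exons. The pair was chosen by a measured value, the difference of an MKNK2 exon between the compared sets, so the values of that exon are given as a description and not as a test.

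Per the labels, each group had 2 libraries of poly(A) RNA from the same cell line. One group received the ASO, a gapmer that directs cleavage of its target, at 70 nM with a lipid reagent, with new medium at 24 hours and RNA taken at 48 hours. The other group is marked as untreated, although its labels carry the same transfection text, and no control ASO is named. The table calls the groups set 1 and set 2 without saying which is which, so every direction below is first set against second set. Its 2 libraries per set carry no label of their own and are named here by their place in the cell. Labels describe the libraries as biological replicates of one line, and nothing states that they came from separate cultures, so p-values speak only for these samples.

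MNK1 and MNK2 sit below the ERK and p38 MAP kinases, which bind a motif near the carboxyl end of each kinase and activate it. On the scaffold eIF4G they phosphorylate eIF4E, the protein that binds the cap of messenger RNAs, and hnRNP A1 and SFPQ are other known substrates. Each gene is known to make a long form that holds the MAP kinase binding motif (MNK1a, MNK2a) and a short form that lacks it (MNK1b, MNK2b). The splicing factor SRSF1 is known to favour MNK2b. The choice between long and short form is made at the 3′ end of both genes, which is where the alternative exons with most balanced use lay in these data.

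The sequences at those 3′ ends are shown because they define what inclusion and skipping stand for. They are from GENCODE release 29 transcripts (GRCh38, minus strand), and events were matched to that release by exon and intron lengths. Both genes have a 44-nt exon before the last exon, at chr1:46560234-46560277 in MKNK1 and chr19:2040134-2040177 in MKNK2. Aligned without gaps, they are identical at 26 of 44 bases (59.1%), written in capitals:
MKNK1 44-nt exon: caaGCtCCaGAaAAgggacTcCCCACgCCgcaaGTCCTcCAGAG
MKNK2 44-nt exon: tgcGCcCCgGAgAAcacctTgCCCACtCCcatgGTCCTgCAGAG

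In the next sequences the capitals mark the stop codon. After the MKNK2 44-nt exon, transcript MKNK2-201 goes on into the long tail (chr19:2039613-2039856) and codes for 465 amino acids, while MKNK2-202 jumps to the short tail (chr19:2037739-2037829) and codes for 414:
MKNK2 long tail: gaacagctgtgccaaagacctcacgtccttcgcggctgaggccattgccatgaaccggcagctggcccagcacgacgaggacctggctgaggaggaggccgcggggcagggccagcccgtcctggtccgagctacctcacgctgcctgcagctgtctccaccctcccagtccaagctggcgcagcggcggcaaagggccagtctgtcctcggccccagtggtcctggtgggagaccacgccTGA
MKNK2 short tail: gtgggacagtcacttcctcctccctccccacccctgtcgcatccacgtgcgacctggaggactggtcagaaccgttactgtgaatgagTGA

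The first 226 bases of the long tail are the alternative MKNK2 exon of the table, and the bases that follow it are GT, as at the start of an intron. In MKNK1 both forms use the same last exon. With the 44-nt exon (MKNK1-231, 424 amino acids) it is read to a far stop (chr1:46558575-46558800), and without it (MKNK1-230, 347 amino acids) it is read in another frame to a near stop (chr1:46558762-46558800):
MKNK1 tail after inclusion: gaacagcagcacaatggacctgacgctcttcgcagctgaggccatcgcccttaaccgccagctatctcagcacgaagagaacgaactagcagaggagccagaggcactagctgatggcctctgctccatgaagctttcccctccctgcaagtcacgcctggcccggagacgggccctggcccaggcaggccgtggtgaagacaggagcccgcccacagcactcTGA
MKNK1 tail after skipping: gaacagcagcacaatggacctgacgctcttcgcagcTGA

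The long tails of the paralogs resemble each other: over the first 75 bases, 58 (77.3%) were identical without gaps. Long and short tails of MKNK2 therefore come from different exons, and those of MKNK1 from the same exon in different frames.

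**Figure D1:**
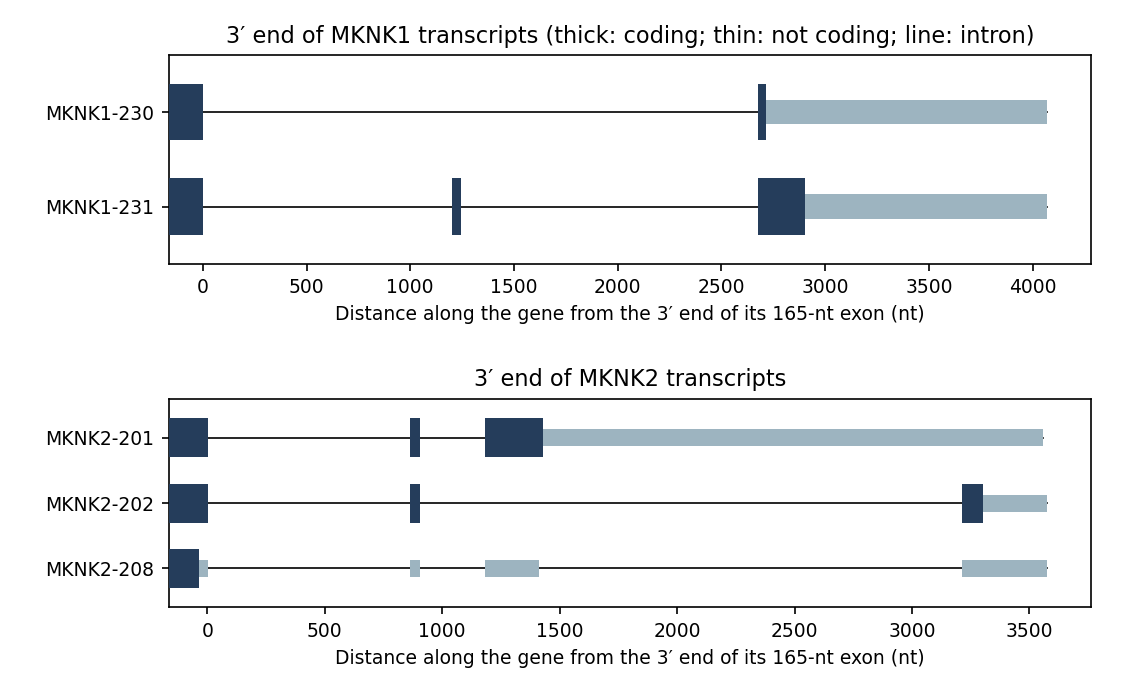
Exons of GENCODE release 29 transcripts at the 3′ ends of MKNK1 (top) and MKNK2 (bottom), drawn to scale by distance in nt from the 3′ end of the 165-nt exon of each gene, with coding parts thick, other parts thin and introns as lines. In MKNK2-201 the 226 bases of the alternative exon are the start of a long last exon, while in MKNK2-208 they are an exon of their own.

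Counts in the table are of reads that span splice junctions. Summed over all events, with junctions shared by events counted more than once, the libraries held between 38613055 and 43929373 junction reads. Library 2 of the second set stood apart: it had no reads on 3280 events, against 513 to 624 in the others. Among tested events with a mean inclusion level between 0.05 and 0.95, 22.3% differed by more than 0.2 between it and the other library of its set, against 7.85% between the libraries of the first set. Events that pass in the authors' deposited table and move by over 1.5 times without it are given both ways. Tested events are those averaging 20 or more junction reads a library, which 18 of the 21 MKNK events and 54503 of all events reached.

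The MKNK2 exon of 226 nt at 2039630 to 2039855 on the minus strand of chromosome 19 (hg19) was included more in the first set. It had 294 inclusion and 172 skipping reads in library 1 of the first set, and library 2 had 303 and 171. Library 1 of the second set had 225 and 256, and library 2 had 131 and 222. Inclusion reads outnumbered skipping reads in both libraries of the first set and in neither of the second. The inclusion level divides reads by the effective length of each form, 298 for inclusion and 149 for skipping, since inclusion makes 2 junctions. The libraries of the first set were at 0.461 and 0.470, those of the second at 0.305 and 0.228. The means were 0.465 ± 0.00633 and 0.267 ± 0.0548 (SD, n = 2 each). Libraries of the same set lay 0.00895 and 0.0775 apart, and libraries of different sets between 0.155 and 0.242 apart, so the sets did not overlap. The difference of 0.199 was 0.160 without library 2 of the second set. The authors' deposited table gives an FDR of 4.25e-06, which is part of what chose this gene.

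Inclusion reads of this event do not separate the long last exon from a true internal exon. The junction from the 44-nt exon to the first base of the 226 bases is the same in MKNK2-201 and MKNK2-213, which end in the long last exon (all 226 bases coding), and in MKNK2-208, which splices on to the exon of the short tail and is annotated as a target of nonsense-mediated decay. The annotated coding part of MKNK2-208 ends within the 165-nt exon, before the 44-nt exon, so the 226 bases are not coding there. The table adds both inclusion junctions, and their separate counts are not used here. If all inclusion reads lay on the shared junction, no length correction would apply, and the inclusion side would hold 63.1% and 63.9% of first-set reads against 46.8% and 37.1% of second-set reads. The order of the libraries and the separation of the sets must be the same under both readings, since both rise with the ratio of inclusion to skipping reads. Neither reading covers a mix of long last exon and internal exon that differs between libraries, which was not tested.

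**Figure D2:**
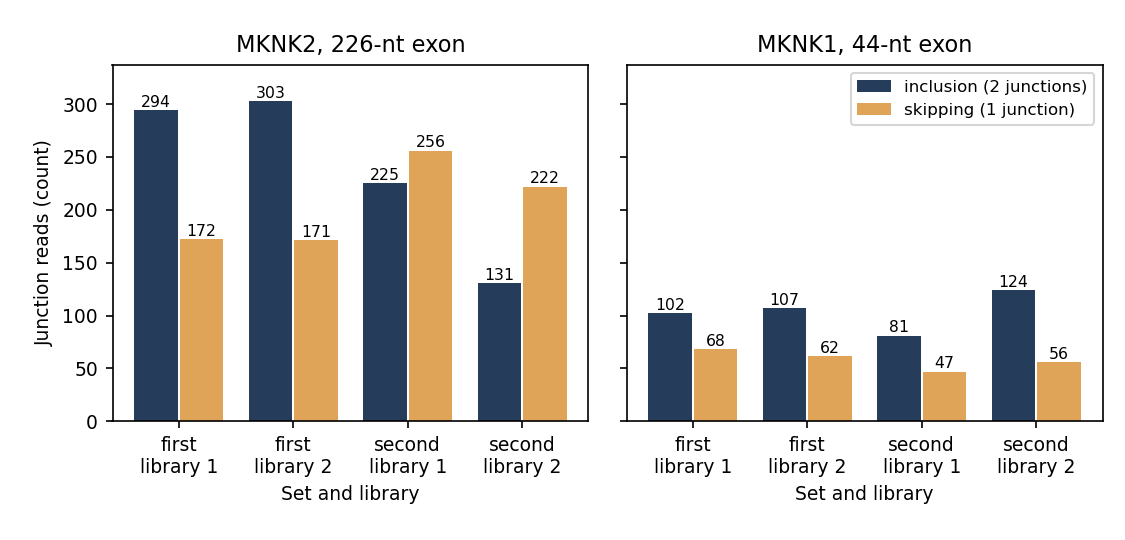
Junction reads (count) for inclusion and skipping of the MKNK2 226-nt exon (left) and the MKNK1 44-nt exon (right) in each library. In MKNK2 the inclusion bars are above the skipping bars in the first set (294 and 303 against 172 and 171) and below them in the second, while in MKNK1 inclusion is above skipping in all 4 libraries.

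The other 5 MKNK2 events were close to full inclusion. The 44-nt exon at 2040133 to 2040176, which is shared by the long and the short form, had 416, 373, 489 and 447 inclusion reads over the 4 libraries and 1 skipping read in all, in library 2 of the first set. Its inclusion reads contain the junction to the short tail, which is the skipping junction of the 226-nt exon, so these events are not independent. The coding exons of 195 nt at 2041839 to 2042033 and 74 nt at 2043123 to 2043196 had levels from 0.998 to 1 and from 0.990 to 1. They lie in the stretch shared by the long and short forms.

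A pair of MKNK2 exons further upstream had sets that did not overlap, at small differences. The 98-nt exon at 2046185 to 2046282, left out in the decay-annotated MKNK2-205, was at 0.996 and 0.972 against 0.997 and 1, with 2, 11, 1 and 0 skipping reads. Without library 2 of the first set, which held 11 of these reads, its difference went from -0.0149 to -0.00300. The 88-nt exon at 2046603 to 2046690 was at 0.988 and 1 against 0.970 and 0.970. In the authors' deposited table neither passed, with FDR values of 1 and 0.454.

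In MKNK1, the 44-nt exon at 47025906 to 47025949 on the minus strand of chromosome 1 (hg19) decides between the long and the short form. It had 102 inclusion and 68 skipping reads, then 107 and 62, in the first set, and 81 and 47, then 124 and 56, in the second. Its inclusion level was 0.537 and 0.571 against 0.571 and 0.631 (0.554 ± 0.0245 and 0.601 ± 0.0424, SD, n = 2 each). Library 2 of the first set and library 1 of the second were 0.000341 apart, so the sets met, and each library's 95% Wilson interval (0.460 to 0.701 in all) overlapped the others. In the authors' deposited table the difference is -0.047, with an FDR of 1. The sign is opposite to that of the MKNK2 exon, but without library 2 of the second set the MKNK1 difference was -0.0170. Whether the response of this exon differed from that of the MKNK2 exon was not tested, since the MKNK2 value chose the genes.

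Upstream of it, the 165-nt coding exon of MKNK1 at 47027150 to 47027314 keeps the reading frame when skipped. Its event pairs it directly with the last exon, so its inclusion reads contain the skipping junction of the 44-nt exon. Skipping reads were 1 and 0 against 4 and 14, beside 198, 204, 134 and 207 inclusion reads. Inclusion was 0.990 and 1 against 0.944 and 0.881, with no overlap. In the authors' deposited table the difference is 0.083, with an FDR of 0.000390, short of the 0.1 set here as the smallest difference for a call. Without library 2 of the second set, which held 14 of the skipping reads, the difference fell to 0.0513, and without length correction to 0.0437. Transcript MKNK1-217 is the annotated form that skips both this exon and the 44-nt exon.

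The 123-nt exon of MKNK1 at 47037089 to 47037211, which adds whole codons to the coding sequence of MKNK1-204 and MKNK1-229, was included rarely. Its reads were 15 inclusion and 111 skipping, then 18 and 64, in the first set, against 6 and 81, then 8 and 106, in the second. The level was 0.0689 and 0.133 against 0.0390 and 0.0397, so the sets did not overlap. The libraries of the first set lay 0.0646 apart, more than the smallest gap between the sets (0.0292), and without library 2 of the first set the difference fell from 0.0619 to 0.0296. Without length correction it was 0.0997. The authors' deposited table gives an FDR of 0.0594.

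At the 5′ end of MKNK1, a rare 101-nt exon at 47051546 to 47051646 was spliced to 3 different pairs of neighbours, and 1 of these 3 events had enough reads to test. That event had 1, 8, 15 and 18 inclusion reads beside 222, 236, 293 and 302 skipping reads, a level of 0.00268 and 0.0198 against 0.0296 and 0.0343. The sets did not overlap. In the authors' deposited table the difference is -0.021, with an FDR of 0.0380. It was -0.0122 without library 1 of the first set, which had 1 inclusion read, and -0.0338 without length correction. The exon is in the decay-annotated MKNK1-210.

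Other MKNK1 exons were almost always used or almost never. The 110-nt exon at 47048486 to 47048595, known from the decay-annotated MKNK1-219, had 0, 0, 2 and 0 inclusion reads beside 215 to 293 skipping reads. The 7 remaining tested events, on exons of 195, 105, 74, 98 and 102 nt, had levels between 0.907 and 1 in every library. The 105-nt and 74-nt exons had 2 events each with different neighbours. The shallower event of each rested on 3 skipping reads in library 1 of the second set. These were the same reads, since both events have the same skipping junction, so the events are not independent. The difference went from 0.0302 to 0.0700 (105 nt) and from 0.0305 to 0.0768 (74 nt) without library 2 of that set. It turned negative without library 1 (-0.00972 and -0.0158). For the 74-nt exon joined to the 105-nt exon, skipping reads were 0 and 1 against 2 and 4, and the sets did not overlap (1 and 0.991 against 0.980 and 0.968), but the authors' deposited table gives an FDR of 1. The 3 untested events had 0 to 12 reads per library, on the 80-nt exon at 47042247 to 47042326 and on the 101-nt exon with other neighbours.

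**Figure D3:**
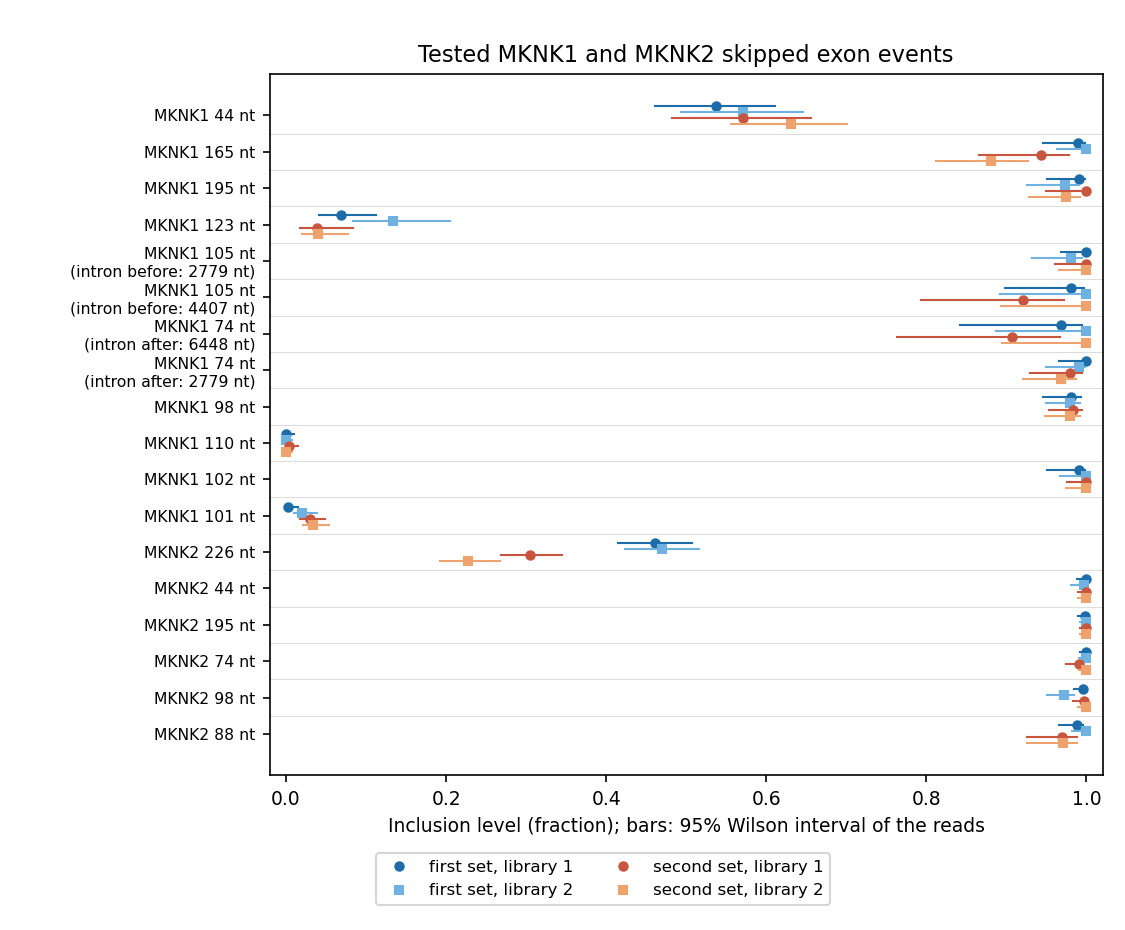
Inclusion level (fraction) of the 18 tested MKNK1 and MKNK2 events in each library, with 95% Wilson intervals of the read counts. The MKNK2 226-nt exon is between 0.228 and 0.470 with the sets apart, the MKNK1 44-nt exon is between 0.537 and 0.631 with the sets meeting, and most other exons are close to 1 or 0.

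Counted over both genes, 1 of the 18 tested events was called, at an FDR under 0.05 and a difference of at least 0.1 in the authors' deposited table. Of all tested events 2.71% were called, 1.34% higher and 1.37% lower in the first set, and the call in MKNK2 is the one that chose the genes. By the FDR alone 3 events passed, against 5.72% of all tested events: 2 higher in the first set (MKNK2 226 nt, MKNK1 165 nt) and 1 lower (MKNK1 101 nt). Levels of the sets did not overlap in 7 of 18 events, against 22.8% of all tested events, a share that is 33.3% where the mean level lies between 0.05 and 0.95. Of the 18, the 3 in that range are the MKNK2 226-nt, MKNK1 44-nt and MKNK1 123-nt exons, the first and last of them with the sets apart, and there 11% of all tested events were called. The median absolute difference was 0.0178 over the 18 events and 0.0114 over all tested events.

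A quasi-binomial model was also fitted to all tested events, with the typical scatter between libraries of a set at a given depth as its error. Its form was changed after results had been seen, and the values under each form are given with the alternatives. It called none of the 18 MKNK events, with adjusted p-values between 0.377 and 0.989, and 2 of them had an unadjusted p under 0.05, against 2.24% of all tested events (1219 of 54503). These were MKNK2 226 nt, whose difference chose the genes, and MKNK1 165 nt. Among all tested events it called 1 (0.00183%), on an exon of CCT4, a gene named here after its value was seen. With so few calls over all tested events, the lack of a call in MKNK1 or MKNK2 does not show an absence of change.

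Reads on the members also give a rough view of how much spliced RNA each gene gave, with junctions shared by events counted more than once. MKNK2 had 96.1 and 87.6 reads per 1000000 junction reads summed over all events in first-set libraries, against 76.0 and 71.7. By this sum the first set was higher without overlap, but not evenly along the gene. MKNK1 had 54.5 and 55.9 against 48.2 and 54.7, and there the sets overlapped. These sums were not tested. The 5 MKNK2 exons of near-full inclusion are given in raw reads, not scaled to the reads of each library summed over all events. Those library sums were larger in the second set (38613055 and 39012939 against 42868431 and 43929373). Even so, raw reads were lower there at the 88-nt exon (397 and 330 against 208 and 211). The same held at the 98-nt exon (740 and 640 against 563 and 562) and the 195-nt exon (1031 and 966 against 911 and 935). Raw reads were 660 and 633 against 606 and 640 at the 74-nt exon. At the 44-nt exon they were 416 and 374 against 489 and 447. Relative to the larger library sums, the 74-nt exon was also lower in the second set, while at the 44-nt exon the sets overlapped. Of these 5 exons, the 88-nt exon, with the largest relative fall, lies nearest the 5′ end and the 44-nt exon nearest the 3′ end. The MKNK2 sum thus pools exons that differed along the gene, and the cause of this was not tested. The 44-nt reads also contain the skipping junction of the 226-nt exon (172 and 171 against 256 and 222).

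To place the kinases among their partners, skipped exons of 36 genes in 3 lists were counted. The list of the MNK pathway held upstream kinases, cap-binding complex proteins and substrates, and 17 of its 22 genes had events. Of its 167 tested events, 1 was called, lower in the first set, against 2.71% of all tested events, and the median absolute difference was 0.00384. It was 1 of 5 events, with different neighbours, of the 57-nt exon of EIF4G1, the scaffold that brings the MNKs to eIF4E, with levels of 0.910 and 0.746 against 0.907 and 0.986. The sets overlapped, and the EIF4G1 difference of -0.118 was -0.2004 when the first set lost library 1 and -0.0366 when it lost library 2, and -0.0789 when the second set lost library 2. The authors' deposited table gives it an FDR of 0.0190. The other 4 EIF4G1 events of this exon had differences from -0.0370 to 0.0178 and none passed. The deepest of them, with a mean of 1114 reads, was at 0.971 and 0.967 against 0.971 and 0.966.

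The 5 deepest alternative exons of the same list had differences under the 0.1 set for a call. The 140-nt exon of EIF4A2, a helicase of the cap-binding complex, was at 0.743 and 0.733 against 0.758 and 0.792, and its 111-nt exon at 0.488 and 0.521 against 0.562 and 0.507. A 135-nt exon of EIF4E2, a relative of eIF4E, was at 0.868 and 0.852 against 0.837 and 0.811. The 114-nt exon of EIF4G2, a relative of eIF4G, lay between 0.910 and 0.933 in all libraries. A 156-nt exon of the MNK substrate HNRNPA1 lay between 0.0767 and 0.0843, from 16951 to 24299 reads, which copies of this gene elsewhere in the genome can share. The sets did not overlap at the EIF4A2 140-nt and EIF4E2 135-nt exons (differences of -0.0374 and 0.0361), as in 33.3% of all tested events of intermediate level. None of these 5 passed in the authors' deposited table, where FDR values ran from 0.250 to 1.

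Related kinases that MAP kinases activate (the MAPKAPK, RSK and MSK genes) had 44 tested events in 9 genes, and 2 were called, both higher in the first set, against 2.71% of all tested events. The 37-nt exon of RPS6KA3, the kinase RSK2, was at 0.178 and 0.132 in the first set and at 0 in both libraries of the second, from 47, 44, 18 and 16 reads. At 18 and 16 reads a level of 0 is not precise. The authors' deposited table gives this RPS6KA3 exon an FDR of 0.00160. The 90-nt exon of RPS6KA2 was at 0.979 and 1 against 1 and 0.639, so library 2 of the second set alone was low. Without it the RPS6KA2 difference went from 0.170 to -0.0106, and without the other second-set library to 0.351.

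The third list held SRSF1 and transcripts known as its splicing targets, with 30 tested events in 4 genes. None was called, and 3 passed by the FDR alone in the authors' deposited table, against 5.72% of all tested events, and these are named here after their values were seen. A pair of overlapping events of SRSF1 itself, 203 and 187 nt long and ending at 56082961 on chromosome 17 (hg19), were lower in the second set. For the longer one the level was 0.985 and 0.981 against 0.954 and 0.922, from 1331 to 2222 reads, and the authors' deposited table lists its FDR as 6.09e-07. The difference of 0.0452 was 0.0293 without library 2 of the second set. These events share most of their reads. The other was the 111-nt exon of BIN1, an adaptor protein, whose difference changed sign without library 2 of the first set (from -0.0372 to 0.00412). SRSF1 protein was not measured, and its part in the MKNK2 value was not tested. The 5 deepest exons of intermediate level in this list were 4 BIN1 events and 1 of BCL2L11, which codes for the cell death protein BIM, and none was called. The 129-nt exon of BIN1 had 2 events with different neighbours, at 0.370 and 0.430 against 0.364 and 0.322, and at 0.624 and 0.569 against 0.563 and 0.388. The 90-nt exon of BIN1 also had 2, at 0.702 and 0.602 against 0.771 and 0.4998, and at 0.387 and 0.434 against 0.468 and 0.408. A 137-nt exon of BCL2L11 was at 0.904 and 0.964 against 0.927 and 1. Without library 2 of the second set the second 129-nt difference of BIN1 went from 0.121 to 0.0332, and the first 90-nt difference from 0.0163 to -0.119. In the authors' deposited table these 5 had FDR values from 0.430 to 1.

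**Figure D4:**
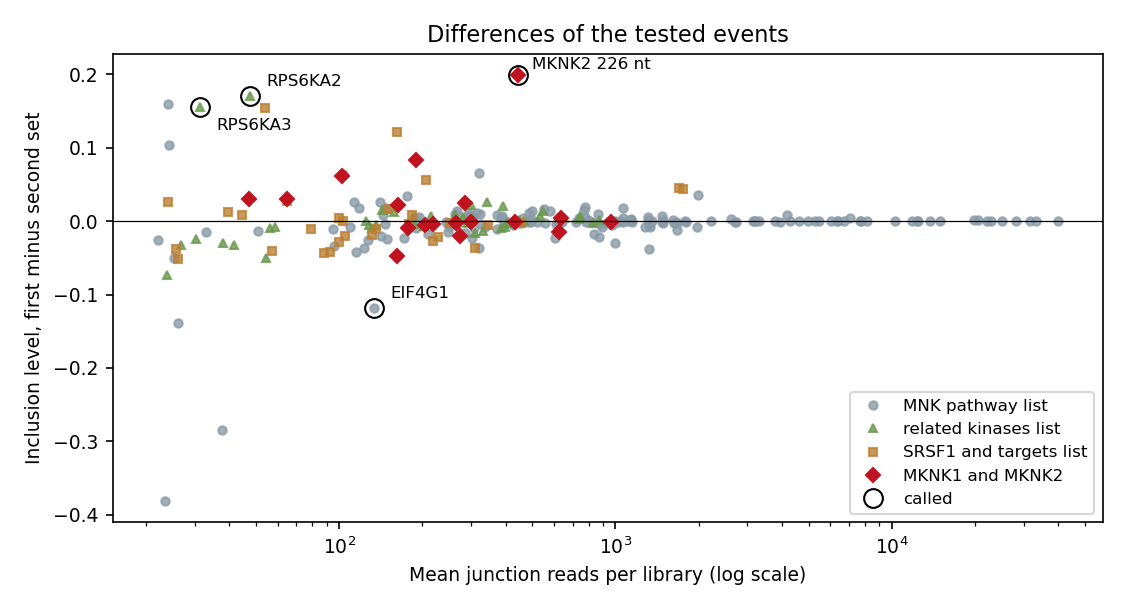
Difference in inclusion level (first minus second set) against mean junction reads per library (log scale) for tested events of MKNK1, MKNK2 and the 3 lists, with called events circled. The MKNK2 226-nt exon lies at 0.199 and a mean of 443.5 reads, 2 EIF4G1 events that were not called lie farther from 0 on the other side (-0.381 and -0.284, at 23.5 and 37.8 reads), and the called events of RPS6KA2 and RPS6KA3 lie at 47.5 and 31.2 reads.

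Exons of other genes whose levels were closest to those of the MKNK2 exon were sought among 7376 genes with an event of at least 100 reads per library on average. Likeness was the largest gap in inclusion level over the 4 libraries. The closest was a 60-nt exon of PLEKHM2, with a largest gap of 0.0524, at 0.439 and 0.427 against 0.345 and 0.280. A 127-nt exon of PPP6R3 followed, with 0.0582. Then came exons of NDUFB5 (0.0689), PCNXL4 (0.0731) and NSUN5P2 (0.0782), the last a pseudogene whose reads can be shared with related copies. Of these 5, the first 4 had a largest gap under the 0.0775 between the second-set libraries of the MKNK2 exon itself.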

How the data were processed

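The data are 1 deposited comparison table of skipped exons from 4 libraries. Per the submitters' processing notes, cutadapt, STAR and the hg19 genome were used, with no versions, roles or order. Per the file headers, the layout is that of rMATS on junction reads; its version and annotation release are not given in the sources used here. The deposited table holds whole-number counts of inclusion and skipping reads, inclusion levels as a fraction, the authors' p-value and FDR, and the difference as a score (first set mean minus second). Recomputed levels were within 0.0005 of those in the file.

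Coordinates are hg19 with 1-based starts, and sequences are GRCh38; none was converted. Calls used the authors' FDR, over all events. A quasi-binomial model (limma 3.58.1 squeezeVar in R 4.3.3) was fitted with Benjamini-Hochberg adjustment. Its first form, in which every event added to the dispersion, recovered none of the changes in simulated data. It was therefore changed 2 times: the dispersion was taken from sets with at least 5 reads of both forms, and then its prior was made to follow depth. Real results, those of the MKNK exons included, had been seen at each form, so these choices were made after seeing the data. The last form, with a dispersion floor of 1, is the one reported, and all 3 forms are given with the alternatives. In it the prior had all the weight, so an event's own scatter did not enter its error. Wilson intervals (95%) cover counting error only, as reads have no molecular identifiers.

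The members and lists were chosen with earlier results of these data known. Every member is described. From the lists, called events and the 5 deepest of intermediate level (0.05 to 0.95) per list are named.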

Additional observations from a re-analysis of the deposited data

How the results depend on the processing

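Of 108 recomputed differences of the 18 tested events, 5 had the opposite sign, on 4 MKNK1 events that were not called, each when 1 library was left out. The MKNK2 226-nt difference of 0.199 was 0.216 without length correction, 0.194 with reads of a set summed, and 0.160 to 0.238 with each library left out. The count of 1 called MKNK event became 2 at a difference of at least 0.05 and 0 at 0.2 (the event lies at 0.199). It became 3 with no minimum, a setting chosen after seeing the data. Counts with a library left out kept the FDR of all 4 libraries and recomputed only the difference, so they could not rise. In this sense the MKNK count stayed at 1 with any library left out. The 1477 calls of the whole table became 719 at a minimum of 50 reads, 2499 and 525 at differences of at least 0.05 and 0.2, 748 at an FDR under 0.01, and 1002 to 1418 with a library left out. The 3 list calls became 1 at 50 reads and 0 at a difference of 0.2, and 1 to 3 with a library left out. These changes follow from the thresholds or from the recomputed differences, and no call was tested anew with fewer libraries. Of the 3 forms of the quasi-binomial model tried, the first, with dispersion from every event, called 0 events over the whole table (4194 at an unadjusted p under 0.05), the second, with 1 prior dispersion for all events, called 1, and the reported form called 1. The smallest adjusted p of an MKNK event was 0.644, 0.0858 and 0.377 in these forms, so none called an MKNK event. The order of the forms and the choice of the last came after seeing the data. The reported form also called 1 event without a floor (0.377) and at 50 reads (0.330). Depth limits the 3 untested events and the exons of RPS6KA2 and RPS6KA3. No paired analysis was possible because the libraries of a set carry no replicate numbers in the table.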
